A study of Mus musculus with 19 samples.

Results

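The genes described here encode the core of the T cell antigen receptor complex and its nearest partners in blood leukocytes: the CD3 chains (Cd3d, Cd3e and Cd3g), the coreceptors Cd4, Cd8a and Cd8b1, the surface regulators Cd5 and Cd6, the kinase Lck and the transcription factor Tcf7. They were chosen by name: all probes of the array whose gene name in the scanner output is one of these 10 genes were taken, which gave 17 of 41174 non-control probes, for 10 of the 27745 gene names on the array. Of these, 16 were well above background in at least 2 RNA samples and were among the 22939 probes tested. The probe left out was a dim one for Cd4. Where a gene had several probes, the one with the highest mean signal was called its main probe, and the others are given beside it.

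Leukocyte RNA came from the blood of male mice of the strains B6 and DBA/2 after CAWS, a water-soluble fraction of the yeast Candida albicans given intraperitoneally on consecutive days to induce arteritis. All 10 groups received CAWS, so the mice of 0 w, taken just after the last injection, are the reference and are not untreated animals. The groups were DBA/2 at 0, 2, 4, 8 and 9 w and B6 at the same weeks, with 2 RNA samples each except B6 at 2 w and at 9 w, which had 1. The paper states that labelled cRNA of individual mice was hybridised and that mice of the later weeks were survivors. It gives a range of ages for all mice, while the labels used here tie no sample to an animal or an age. The 18 RNA samples were read on 19 one-colour arrays, since replicate 2 of B6 0 w was hybridised to 2 arrays, whose values were averaged.

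The antigen receptor of a T cell recognises peptide held by MHC molecules and has no signalling tail of its own. The CD3 chains carry the signal inwards, CD4 marks helper T cells and binds MHC class II, and CD8 marks cytotoxic T cells and binds MHC class I as a dimer of an alpha and a beta chain. Lck sits on the tails of CD4 and CD8 and phosphorylates the CD3 chains, CD5 and CD6 tune the strength of the signal, and TCF1, the product of Tcf7, is abundant in naive and memory T cells. In blood, these transcripts come mainly from T cells, with smaller contributions from NK cells, other innate lymphocytes and some B cells and monocytes for single genes.

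Between 33.4% and 50.9% of the probes were well above background on each array, and the 15 pan-leukocyte genes listed for scaling were well above background in every sample. Labelled replicates were very close: the median absolute deviation of the log2 difference between replicates 1 and 2 was 0.131 to 0.187 over the 11536 probes that every array measured well above background, against 0.139 for the 2 arrays of the same RNA and 0.273 to 0.688 between groups. The p-values below measure only this spread between samples, which is about that between arrays of one RNA and may be technical. Replicate 2 of DBA/2 9 w stood apart, with 1096 probes holding a spot marked as an outlier against 53 to 139 on the other arrays. The B6 samples of 0 w and 8 w carried liver transcripts: the 9 tested hepatocyte markers summed to signals of 12092 to 14047 there and of 391 to 1058 in all other samples.

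Over 4 w and 8 w after CAWS, 7 of the 10 T cell genes were lower in DBA/2 mice, with the largest changes in Cd6, Tcf7, Cd8b1 and Cd5, while Cd3e and Cd4 were called at no week. None of the 10 passed the test for a rise in either strain, except that 3 did in B6 mice when the deposited value table was used without scaling, which raised the median change of all probes there from -0.08 to 0.45. In DBA/2 mice, Cd6, whose product binds the adhesion molecule ALCAM, was at 42.8% of its 0 w level by 8 w. Tcf7 was at 48%, Cd5 at 51.1% and Cd8b1 at 55.2% at the same week. Values are normalized signals, the log2 of the scanner's processed signal minus the 75th percentile of that array, taken over probes that every array measured well above background, and a change is a difference of such values. In bulk RNA, fewer T cells and less of a transcript per T cell cannot be told apart.

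**Figure D1:**
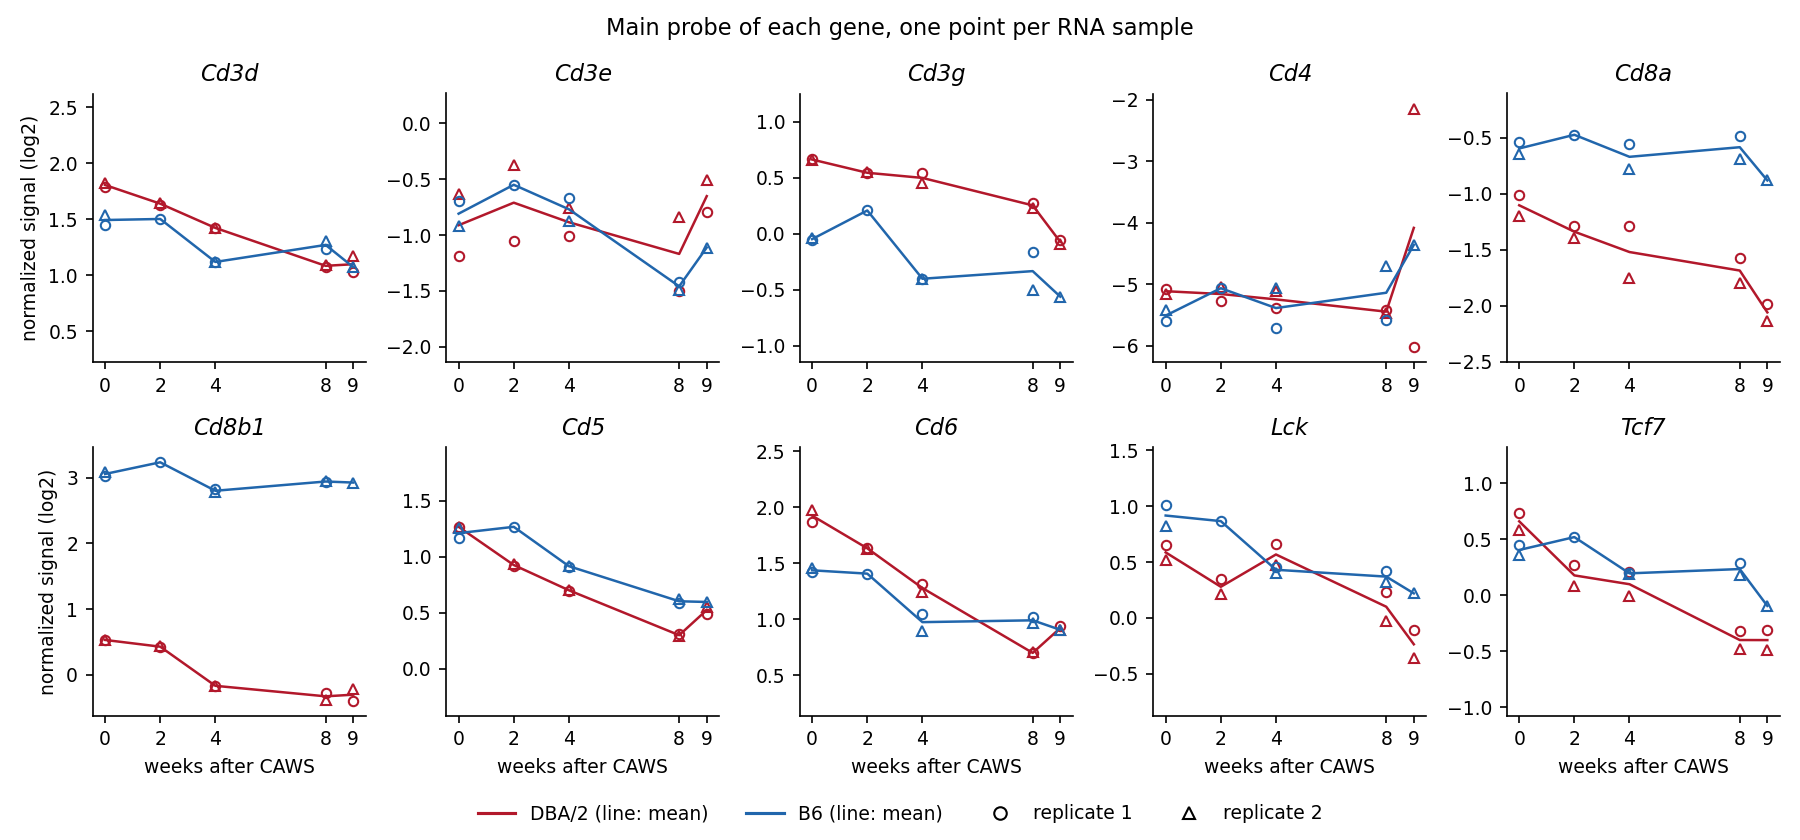
Normalized signal (log2) of the main probe of each of the 10 genes against weeks after CAWS, with 1 point per RNA sample (circle, replicate 1; triangle, replicate 2), DBA/2 in red, B6 in blue and lines through the group means. Panels differ in the range they span, Cd4 and Cd8b1 spanning more, and Cd6 in DBA/2 mice goes from 1.87 and 1.98 at 0 w to 0.69 and 0.70 at 8 w.

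The number of members lower in DBA/2 mice grew with the weeks. At 2 w, 3 of 10 were lower than at 0 w by limma with Benjamini-Hochberg adjustment over all tested probes, at a threshold of 0.05, where 7.82% of all probes were lower. At 4 w it was 5 of 10 (background 7.24%), at 8 w 8 of 10 (background 14%) and at 9 w 8 of 10 (background 14.3%). Without replicate 2 of DBA/2 9 w the same 8 were lower at 9 w, in a fit that takes the lone sample to vary like the other groups. Cd5, Cd6 and Tcf7 were the genes already lower at 2 w, by 0.34, 0.29 and 0.48 on the log2 scale, with adjusted p-values from limma of 0.00795, 0.0323 and 0.0205. Over 4 w and 8 w together, 7 of 10 were lower, against 13.1% of all probes lower and 9.8% higher. The median change of the 10 was -0.53 on the log2 scale, beside -0.14 for all tested probes. The genes that were not called over 4 w and 8 w were Cd3e, Cd4 and Lck.

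**Figure D2:**
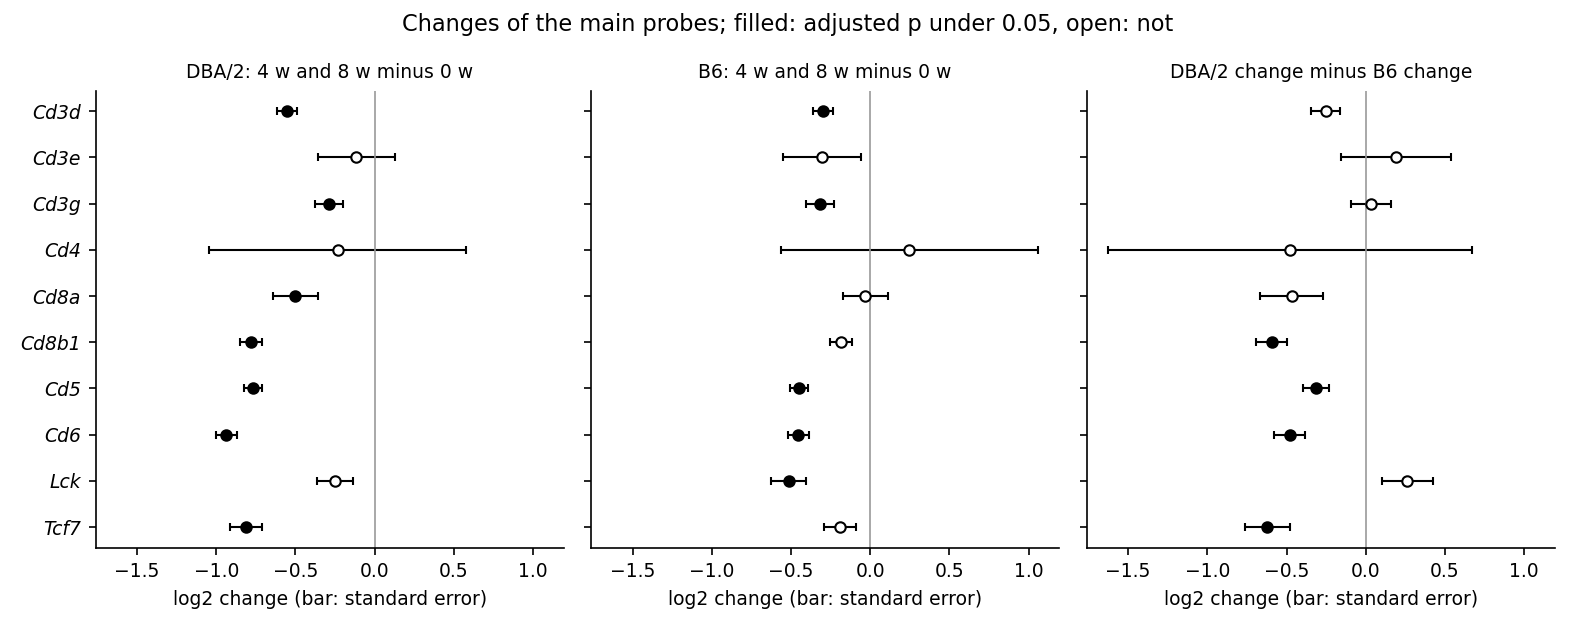
Log2 change of the 10 main probes over 4 w and 8 w against 0 w in DBA/2 mice (left) and B6 mice (middle), and the DBA/2 change minus the B6 change (right), with bars of 1 standard error and filled points for adjusted p-values from limma under 0.05. In DBA/2 mice the points run from -0.94 for Cd6 to -0.11 for Cd3e. In B6 mice 9 genes are negative, and all 9 turn positive without any scaling, which moves the median of all probes from -0.08 to 0.45.

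Of the 3 CD3 genes, 2 were called lower on their main probes in DBA/2 mice, and differences among the 3 were not tested. Cd3d, which encodes the delta chain, read 1.79 and 1.82 at 0 w in DBA/2 mice and 1.07 and 1.10 at 8 w. The 4 samples of 2 w and 4 w lay in between, at 1.63, 1.65, 1.43 and 1.42, and no week overlapped 0 w. The change over 4 w and 8 w was -0.55 ± 0.07 (SE, adjusted p = 0.000296 by limma), or 68.2% of the 0 w level. Cd3g, which encodes the gamma chain, went from 0.67 and 0.66 at 0 w to 0.27 and 0.23 at 8 w and -0.06 and -0.09 at 9 w. Its change over 4 w and 8 w was smaller, -0.29 ± 0.09 (adjusted p = 0.044 by limma), and that call was lost in 22 of 35 alternative settings, with adjusted p-values of 0.00186 to 0.676. The change of Cd3g at 9 w, -0.74 ± 0.10, had an adjusted p of 0.0007 by limma.

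Cd3e, which encodes the epsilon chain, was called at no week, with a standard error larger than that of the other CD3 genes. Its main probe read -1.19 and -0.64 at 0 w in DBA/2 mice, -1.05 and -0.37 at 2 w, -1.01 and -0.76 at 4 w, -1.50 and -0.84 at 8 w, and -0.79 and -0.51 at 9 w. Replicate 2 was the higher one in all 5 weeks, and 0 w overlapped with the later weeks. The change over 4 w and 8 w was -0.11 ± 0.25 (adjusted p = 0.808 by limma). The second Cd3e probe, A_52_P86404, was well above background in 9 of 18 samples and fell by 1.43 ± 0.43 on the log2 scale over 4 w and 8 w (adjusted p = 0.0393 by limma), so the 2 probes of this gene disagree.

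In the genome the CD3 genes lie close together on chromosome 9. Cd3d and Cd3g start 1355 bases apart and point away from each other, while the start of Cd3e lies 27825 bases from that of Cd3d (RefSeq, GRCm38.p6). The probes lie on the older build mm8 at chr9:44737083-44737314 for Cd3d, chr9:44724628-44725212 for Cd3g and chr9:44750166-44750225 for the main Cd3e probe. The 250 bases before the start of these 3 genes are shown because Cd3d and Cd3g were called lower and Cd3e was not, with Cd5 added as the gene with the smallest standard error among those that fell. They are written 5′ to 3′ on the strand of the gene, and capitals mark matches, on either strand, to core letters bound by transcription factors used in T cells. These were TGTGGT for RUNX proteins, and AGGAAG for ETS proteins. The letters CTTTGA stood for TCF and LEF proteins, while AGATAA stood for GATA proteins. The last were CAGCTG, the letters of an E-box.
Cd3d, chr9:44981536-44981785, plus strand: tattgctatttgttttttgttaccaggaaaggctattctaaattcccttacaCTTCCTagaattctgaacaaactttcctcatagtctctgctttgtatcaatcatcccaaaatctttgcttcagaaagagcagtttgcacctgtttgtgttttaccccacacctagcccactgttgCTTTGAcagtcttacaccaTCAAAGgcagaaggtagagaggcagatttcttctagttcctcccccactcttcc
Cd3g, chr9:44980432-44980681, minus strand: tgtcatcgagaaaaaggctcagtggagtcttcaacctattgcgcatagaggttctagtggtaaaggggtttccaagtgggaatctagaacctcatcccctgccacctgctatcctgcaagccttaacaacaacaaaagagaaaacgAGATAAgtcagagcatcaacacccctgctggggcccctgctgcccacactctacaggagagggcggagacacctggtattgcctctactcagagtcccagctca
Cd3e, chr9:45009612-45009861, minus strand: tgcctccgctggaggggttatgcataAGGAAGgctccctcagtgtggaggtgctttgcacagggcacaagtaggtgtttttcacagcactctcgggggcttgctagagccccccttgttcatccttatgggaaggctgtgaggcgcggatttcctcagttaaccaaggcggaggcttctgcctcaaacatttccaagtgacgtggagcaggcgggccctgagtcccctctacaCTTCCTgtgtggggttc
Cd5, chr19:10738975-10739224, minus strand: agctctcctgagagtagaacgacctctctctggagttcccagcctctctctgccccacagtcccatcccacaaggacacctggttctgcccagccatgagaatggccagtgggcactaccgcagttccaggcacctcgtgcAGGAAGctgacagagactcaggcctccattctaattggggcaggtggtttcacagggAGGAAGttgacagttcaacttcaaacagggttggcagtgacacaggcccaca
The Cd3d window held the TCF and LEF letters at 2 places and the ETS letters at 1, and the Cd3g window held the GATA letters at 1 place. The Cd3e and Cd5 windows each held the ETS letters at 2 places. Among 32851 promoter windows of the same length in the RefSeq table, 29.5% held the ETS letters, 14% the RUNX letters, 13.8% the TCF and LEF letters, 13% the E-box letters and 9.99% the GATA letters, so each of these matches is common. RefSeq windows were found for 7 of the 10 genes.

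Cd5 and Cd6, neighbouring genes on chromosome 19, fell together and at every later week in DBA/2 mice. Cd5 read 1.26 and 1.27 at 0 w, 0.92 and 0.93 at 2 w, 0.70 and 0.71 at 4 w, 0.31 and 0.29 at 8 w, and 0.49 and 0.56 at 9 w. Its change over 4 w and 8 w was -0.77 ± 0.06 (adjusted p = 1.58e-05 by limma). Cd6 read 1.87 and 1.98 at 0 w, 1.64 and 1.63 at 2 w, 1.31 and 1.24 at 4 w, 0.69 and 0.70 at 8 w, and 0.94 and 0.90 at 9 w. This was the largest change of the 10 main probes, -0.94 ± 0.07 over 4 w and 8 w (adjusted p = 1.2e-05 by limma), and no later sample of either gene overlapped 0 w. The second Cd6 probe, A_52_P294977, was well above background in 17 of 18 samples, and its change of -0.32 ± 0.21 was not called (adjusted p = 0.341 by limma).

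Tcf7 fell by 0.81 ± 0.10 on the log2 scale over 4 w and 8 w in DBA/2 mice (adjusted p = 0.000379 by limma). Its main probe read 0.74 and 0.59 at 0 w, 0.27 and 0.08 at 2 w, 0.21 and -0.01 at 4 w, -0.32 and -0.48 at 8 w, and -0.31 and -0.49 at 9 w. The second Tcf7 probe, A_52_P244711, fell by 0.66 ± 0.09 (adjusted p = 0.000604 by limma), but the probes disagree on the strains at 0 w, where it was lower in DBA/2 mice (-0.52 ± 0.10, adjusted p = 0.00354) and the main probe was not called (0.26 ± 0.12, adjusted p = 0.126). The calls of Cd5, Cd6, Cd8b1 and Tcf7 in DBA/2 mice held in each of the 35 alternative settings tried. Within slides, where DBA/2 samples of 0 w, 2 w, 4 w and 8 w with the same replicate number lay side by side, Cd6 was 1.18 and 1.28 lower at 8 w than at 0 w, Tcf7 1.05 and 1.07, Cd5 0.96 and 0.98, and Cd8b1 0.80 and 0.91. The 9 w and 0 w samples of DBA/2 mice lay on different slides, so slide and week cannot be told apart for that comparison.

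Lck was first called at 8 w in DBA/2 mice, as were Cd3g and Cd8a. It read 0.65 and 0.52 at 0 w, 0.35 and 0.21 at 2 w and 0.66 and 0.48 at 4 w, and the 4 w samples overlapped those of 0 w. It then read 0.23 and -0.03 at 8 w and -0.11 and -0.36 at 9 w. The change was called at 8 w (-0.49 ± 0.13, adjusted p = 0.0232 by limma) and at 9 w (-0.82 ± 0.13, adjusted p = 0.00142), but not at 4 w (-0.02 ± 0.13, adjusted p = 0.967). A difference between Lck and the other members was not tested.

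The beta chain of the cytotoxic coreceptor gave the widest gap between the strains, on its main probe. The main Cd8b1 probe, which matches the beta chain messenger M17534 and lies at chr6:71266583-71266641 (mm8), had processed signals of 252 to 691 in the 10 DBA/2 samples, with a median of 429.8, and of 1916 to 4269 in the 8 B6 samples, with a median of 2277. The strains did not overlap at any week. At 0 w the log2 level was 0.53 in both DBA/2 samples and 3.03 and 3.08 in the B6 samples. The difference of -2.53 ± 0.08 (adjusted p = 5.49e-08 by limma) put DBA/2 mice at 17.4% of the B6 level on this probe. A difference in sequence between the strains under the probe was not tested. At 8 w the difference was -3.27 ± 0.08 (adjusted p = 3.18e-08 by limma).

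**Figure D3:**
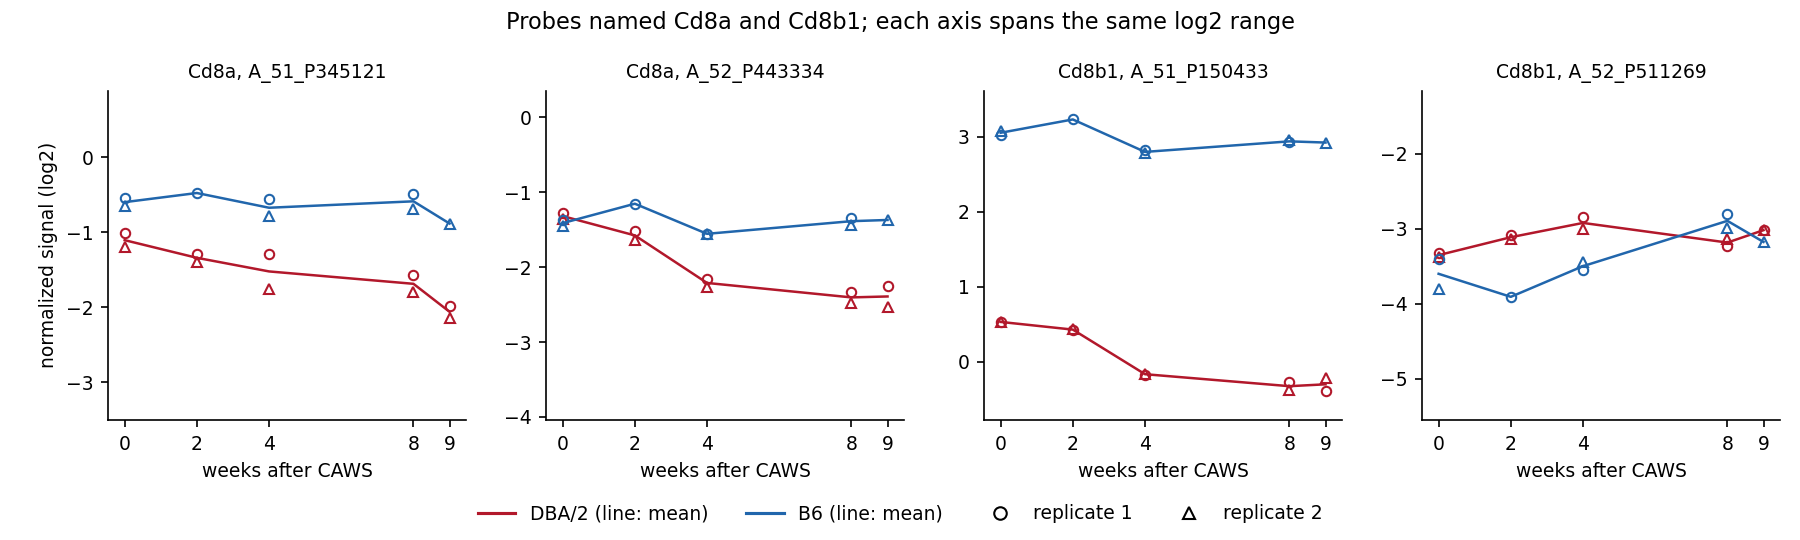
Normalized signal (log2) of the 4 probes named Cd8a or Cd8b1 that were well above background in all 18 samples, against weeks after CAWS, with 1 point per RNA sample (circle, replicate 1; triangle, replicate 2) and lines through group means. At 0 w, DBA/2 minus B6 is -2.53 for the Cd8b1 probe A_51_P150433, -0.51 for the Cd8a probe A_51_P345121, 0.09 for A_52_P443334 and 0.25 for A_52_P511269.

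Within DBA/2 mice the same Cd8b1 probe stepped down between 2 w and 4 w. It read 0.53 and 0.53 at 0 w and 0.42 and 0.43 at 2 w, then -0.17 and -0.16 at 4 w, -0.27 and -0.38 at 8 w, and -0.39 and -0.21 at 9 w. The change over 4 w and 8 w was -0.78 ± 0.07 (adjusted p = 5.12e-05 by limma). In B6 mice it read between 2.78 and 3.23 in all samples, and the change over 4 w and 8 w of -0.18 ± 0.07 was not called (adjusted p = 0.111 by limma).

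A second probe that the files name Cd8b1, A_52_P511269, went another way. It carries the accession BC025208 and is placed on chr5:115404420-115404479 (mm8), away from Cd8b1 on chromosome 6 and its processed signal was 16.0 to 80.6 on single arrays. Its level did not separate the strains at 0 w (0.25 ± 0.13, adjusted p = 0.19 by limma), and over 4 w and 8 w its change was 0.30 ± 0.11 in DBA/2 mice (adjusted p = 0.0946) and 0.40 ± 0.11 in B6 mice (adjusted p = 0.0423). Whether it reports Cd8b1 at all was not tested.

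Cd8a, which encodes the alpha chain, was measured by 3 probes at chr6:71303400-71308485 (mm8). The main probe, A_51_P345121, read -1.01 and -1.20 at 0 w in DBA/2 mice, -1.57 and -1.80 at 8 w, and -1.98 and -2.14 at 9 w. Its change over 4 w and 8 w was -0.50 ± 0.14 (adjusted p = 0.0313 by limma), a call that was lost in 11 of 35 alternative settings. The probe A_52_P443334, printed at 10 spots on each array, gave a larger and tighter change, from -1.28 and -1.36 at 0 w to -2.33 and -2.48 at 8 w, or -0.99 ± 0.09 over 4 w and 8 w (adjusted p = 7.13e-05 by limma). In B6 mice neither passed the test, at -0.03 ± 0.14 (adjusted p = 0.922) and -0.06 ± 0.09 (adjusted p = 0.76). The third probe, A_52_P150547, was well above background in 14 of 18 samples, and its change in DBA/2 mice was 0.53 ± 0.49 (adjusted p = 0.528 by limma). Between the strains, the main probe was lower in DBA/2 mice at 0 w (-0.51 ± 0.16, adjusted p = 0.0399 by limma) while A_52_P443334 was not called (0.09 ± 0.11, adjusted p = 0.565). At 8 w both were lower in DBA/2 mice, by 1.10 ± 0.16 and 1.02 ± 0.11 on the log2 scale. A difference in sequence between the strains under a probe was not tested and cannot be told apart here from a difference in transcript level.

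The helper coreceptor was hardly measured. The main Cd4 probe, A_52_P383089 at chr6:124833307-124833366 (mm8), was well above background in 6 of 18 samples, 5 of DBA/2 mice and 1 of B6 mice. The second probe, A_51_P236573, was well above background in 0 of 18 samples. On 18 of the 19 arrays the median of the 10 spots of the main probe lay between 4.65 and 21.4. On the array of DBA/2 9 w replicate 2, the one with the most outlier spots, the 10 spots read 37.3 to 207, with a median of 110. The other DBA/2 9 w sample had a normalized level of -6.03 against -2.15 there, so that the change at 9 w was 1.03 with this array and -0.91 without it, and no week differed from 0 w in DBA/2 mice (adjusted p-values of 0.47 to 0.989 by limma). The values of Cd4 in the groups with no sample well above background, which are both strains at 0 w and the B6 groups of 2, 4 and 8 w, are bounds and not levels.

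**Figure D4:**
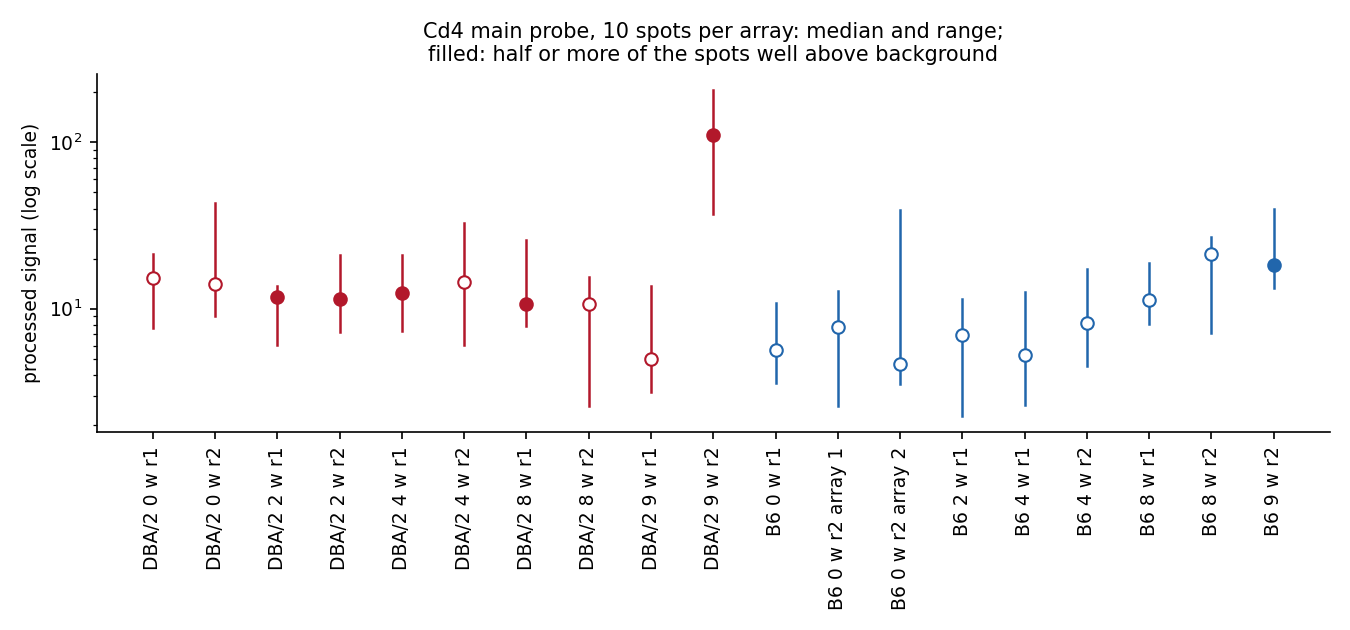
Processed signal (log scale) of the main Cd4 probe on each of the 19 arrays, with the median of its 10 spots as a point and their range as a line, DBA/2 in red and B6 in blue, filled where at least 5 of the spots were well above background. The array of DBA/2 9 w replicate 2 has a median of 110, above the medians of 4.65 to 21.4 on the other 18 arrays.

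Helper and cytotoxic coreceptors were compared within each array as log2 Cd4 minus the mean log2 of Cd8a and Cd8b1, on main probes. Only differences of this quantity between samples have a meaning, since signals of different probes are not on a common scale. In DBA/2 mice it was 0.72 higher over the 8 later samples than over the 2 of 0 w (p = 0.311, exact permutation test, two-sided, smallest possible p 0.0222). Without DBA/2 9 w replicate 2 that difference was 0.27 (p = 0.25, exact permutation test). In B6 mice it was 0.51 higher over the 6 later samples (p = 0.286, exact permutation test, two-sided, smallest possible p 0.0357). Since the Cd4 probe was not well above background in any 0 w sample, both of these are differences from a bound, and no change of the balance can be read from them. DBA/2 mice were 2.01 above B6 mice over the weeks (p = 0.00154, exact permutation of strain within week, two-sided). Here too the Cd4 values are mostly bounds, with the probe well above background in 5 DBA/2 samples and 1 B6 sample. The gap between the strains is therefore no measure of helper against cytotoxic coreceptor. That gap lay mostly in the main Cd8b1 probe: with Cd8a alone it was 0.98 (p = 0.0653, exact permutation test) and with the Cd8b1 probe on chromosome 5 it was -0.22 (p = 0.743).

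Set against the CD3 chains, the mean of the CD8 genes was lower over 4 w and 8 w than at 0 w in DBA/2 mice and higher in B6 mice, without a test. The mean of Cd8a and Cd8b1 minus the mean of the 3 CD3 genes began in DBA/2 mice at -0.81 ± 0.20 (SD, n = 2) at 0 w, and stood at -1.19 ± 0.19 in the samples of 4 w, -1.06 ± 0.27 in those of 8 w and -1.31 ± 0.08 in those of 9 w. The B6 samples of 0 w had 1.02 ± 0.0048, those of 4 w 1.08 ± 0.04 and those of 8 w 1.35 ± 0.02. The values of 4 w and 8 w were thus 0.32 below 0 w in DBA/2 mice and 0.20 above it in B6 mice. With Cd3d and Cd3g alone as the reference, a choice made after the spread of Cd3e was seen, the quantity for 0, 4 and 8 w was -1.52 ± 0.08, -1.81 ± 0.12 and -1.68 ± 0.12 in DBA/2 mice, and 0.51 ± 0.06, 0.71 ± 0.09 and 0.71 ± 0.03 in B6 mice. With the main Cd8a probe alone against Cd3d and Cd3g, the DBA/2 values were -2.34 ± 0.14 at 0 w and -2.36 ± 0.16 at 8 w. That is no fall beyond their spread, and the values of 4 w and 9 w were -2.48 ± 0.29 and -2.57 ± 0.15. The Cd8a probe A_52_P443334 was not set against CD3. From 0 w to 8 w its mean went from -1.32 to -2.40, further than Cd3d (1.81 to 1.08) and Cd3g (0.66 to 0.25). The single B6 sample of 2 w, at 0.99 against all 3 CD3 genes, was not above 0 w.

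The B6 mice had lower values of Cd3d, Cd3g, Cd5, Cd6 and Lck over 4 w and 8 w. At 2 w, 0 of 10 members were lower than at 0 w (background 7.74%) and 0 were at an unadjusted p under 0.05. At 4 w the count was 5 of 10 (background 9.66%). Later it was 3 at 8 w (background 10.2%), and 5 for the 1 sample of 9 w (background 3.86%), which the fit takes to vary like the other groups. Over 4 w and 8 w the count was 5 of 10 against 7.73% of all probes. All 5 turned to a higher value when the deposited value table was used without scaling, a setting that shifts all probes alike and moved their median change in B6 mice from -0.08 to 0.45. Lck had the largest of these changes, from 1.01 and 0.82 at 0 w to 0.46 and 0.40 at 4 w and 0.42 and 0.32 at 8 w, or -0.51 ± 0.11 (adjusted p = 0.0135 by limma). Cd5 went from 1.17 and 1.25 at 0 w to 0.91 and 0.92 at 4 w and 0.59 and 0.62 at 8 w, or -0.45 ± 0.06 (adjusted p = 0.000732). Cd6 changed by -0.45 ± 0.07 (adjusted p = 0.00175). For Cd3g the call over 4 w and 8 w was lost in 20 of 35 alternative settings, and its sign changed in 1 more. The count over 4 w and 8 w was 3 without B6 0 w replicate 1 and 3 without B6 0 w replicate 2.

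Since the B6 samples of 0 w and 8 w held liver transcripts, B6 4 w was also set against B6 2 w, a comparison added after the data were seen, in which 0 of the 9 hepatocyte markers were higher and 2 were lower. There, 5 of 10 members were lower (background 8.96%): Cd3g by 0.61, Cd8b1 and Cd6 by 0.43, Cd3d by 0.38 and Cd5 by 0.35 on the log2 scale, with adjusted p-values by limma of 0.0103 to 0.0221. B6 2 w was 1 sample, which the fit takes to vary like the other groups.

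The change over 4 w and 8 w differed between the strains for 4 of 10 members, all lower in DBA/2 mice, where 6.73% of all probes were called in that direction and 6.48% in the other. Tcf7 changed by 0.62 more in DBA/2 mice than in B6 mice (difference -0.62 ± 0.14, adjusted p = 0.0195 by limma), Cd8b1 by -0.59 ± 0.10 (adjusted p = 0.004), Cd6 by -0.48 ± 0.10 (adjusted p = 0.0102) and Cd5 by -0.32 ± 0.08 (adjusted p = 0.0327). The Cd8a probe A_52_P443334 also differed, by -0.93 ± 0.13 (adjusted p = 0.00169 by limma), and the main Cd8a probe did not pass (-0.47 ± 0.20, adjusted p = 0.177). The second Cd6 probe, A_52_P294977, had DBA/2 means of -3.60, -3.79 and -4.04 at 0, 4 and 8 w. Its B6 means were -3.55, -3.65 and -4.28, so over both weeks it did not fall further in DBA/2 mice. The second Tcf7 probe, A_52_P244711, had means of -1.81, -2.27 and -2.66 in DBA/2 mice and -1.29, -1.61 and -1.47 in B6 mice. For Cd3g the difference was 0.03 ± 0.13 (adjusted p = 0.926) and for Lck 0.26 ± 0.16 (adjusted p = 0.355). The count of 4 was 0 with normexp background correction and 0 with no filter on dim probes, and 2 without either replicate of DBA/2 0 w or of B6 0 w.

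Single members also differed in level between the strains before the later weeks. At 0 w, 3 of 10 members were higher in DBA/2 mice (background 17.2%) and 2 were lower (background 15.4%). For 10 genes these counts are near the shares over all probes and are no result about the genes as a set. Cd3g read 0.67 and 0.66 in DBA/2 mice and -0.06 and -0.04 in B6 mice, a difference of 0.71 ± 0.10 (adjusted p = 0.000605 by limma). Cd6 was higher by 0.49 ± 0.08 (adjusted p = 0.0011) and Cd3d by 0.31 ± 0.08 (adjusted p = 0.0107). At 8 w only Cd3g was still higher among the 10 main probes (0.59 ± 0.10, adjusted p = 0.00232 by limma, background 10.4%), and 5 were lower in DBA/2 mice (background 15%), namely Cd8b1, Cd8a, Tcf7, Cd5 and Cd6. On its main probe, Cd6 thus stood above B6 at 0 w and below it at 8 w (-0.29 ± 0.08, adjusted p = 0.0214 by limma). That call at 8 w was lost in 10 of 33 alternative settings. The second Cd6 probe, A_52_P294977, had group means of -3.60 in DBA/2 mice and -3.55 in B6 mice at 0 w. At 8 w these means were -4.04 and -4.28, so this probe did not show the crossing. The B6 samples of 0 w and 8 w were those with liver transcripts, whose part in these strain differences was not tested. At 4 w, where B6 samples lacked them, 3 of 10 members were higher in DBA/2 mice (background 19.1%) and 3 were lower (background 13%). Those counts too are near the shares over all probes. Cd6 had group means of 1.28 in DBA/2 mice and 0.97 in B6 mice at that week.

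The leukocytes around the T cells changed as well. In DBA/2 mice, all 8 neutrophil markers were higher over 4 w and 8 w, with a median change of 2.34, and their summed signal went from 50835 to 50930 at 0 w to 291104 to 341365 at 8 w. All 7 monocyte markers were higher, with a median change of 1.65, and 6 of 8 B cell markers were lower, with a median of -0.62. Of all tested probes, 9.8% were higher and 13.1% lower in that comparison. In B6 mice, 8 of 8 neutrophil markers were higher over 4 w and 8 w, with a median of 2.19, and 2 of 7 monocyte markers were higher and 2 lower. The shares of all tested probes there were 7.28% higher and 7.73% lower. The mean of 6 NK cell markers was -2.16, -2.23 and -1.81 at 0, 4 and 8 w in DBA/2 mice. In the B6 groups of those weeks it was -1.51, -1.96 and -1.95. The mean of 6 erythroid markers in B6 samples was 6.63 and 6.59 at 0 w, 6.97 and 6.90 at 4 w, and 5.72 and 5.72 at 8 w. The part of these lists in the changes of the T cell genes was not tested. In B6 mice at 4 w against 2 w, where 5 T cell genes were lower, 0 of 8 neutrophil markers were called, 1 of 7 monocyte markers was higher and 5 were lower, and 5 of 8 B cell markers were lower. Beside these, 6.62% of all tested probes were higher and 8.96% lower.

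**Figure D5:**
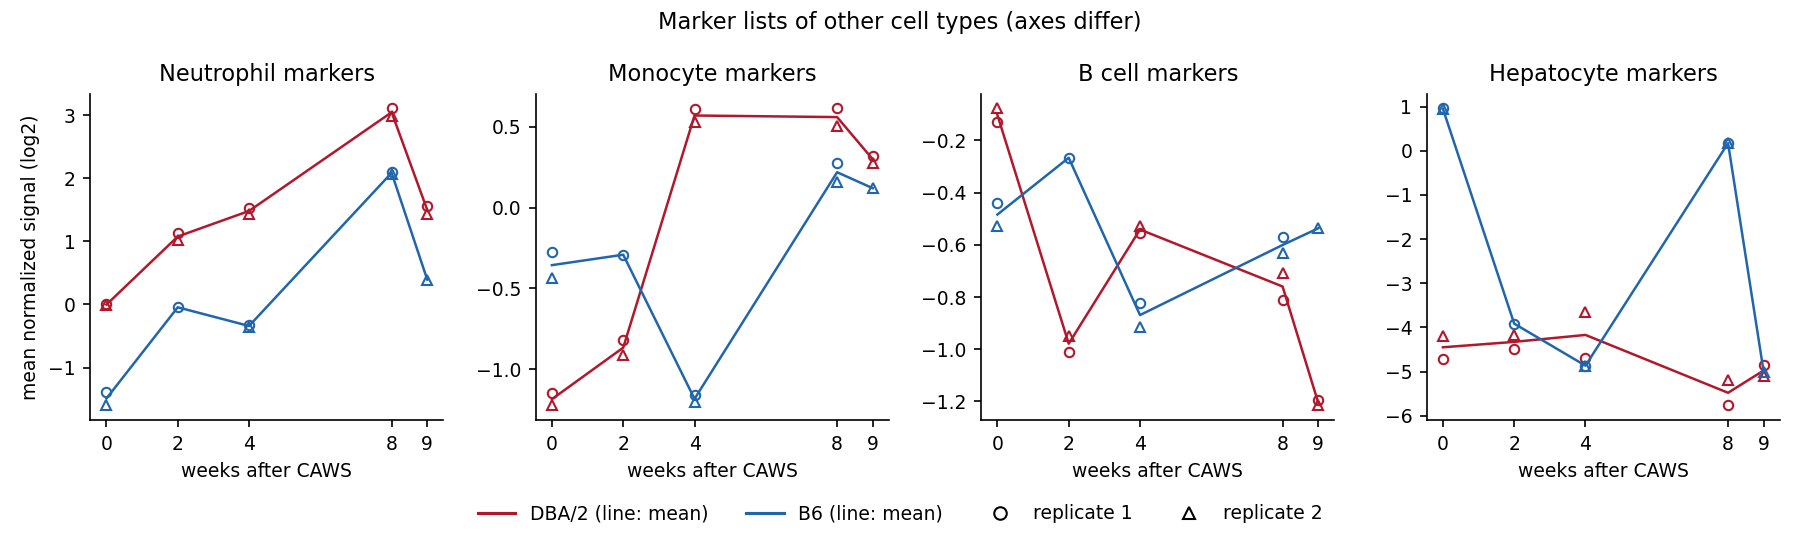
Mean normalized signal (log2) of 8 neutrophil, 7 monocyte, 8 B cell and 9 hepatocyte markers against weeks after CAWS, with 1 point per RNA sample (circle, replicate 1; triangle, replicate 2), DBA/2 in red, B6 in blue and lines through group means, on axes that differ. The hepatocyte list stands at 0.95 in B6 0 w and 0.17 in B6 8 w and at -3.91 or lower as a mean of every other group.

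Other genes of T cell receptor signalling, taken from a list of 32 of which 31 were tested, were more often lower than higher. Over 4 w and 8 w, 14 were lower and 2 higher in DBA/2 mice, where 13.1% of all probes were lower and 9.8% higher. Their median change was -0.38, beside -0.14 for all probes. In B6 mice 11 were lower (background 7.73%) and 0 higher, with a median of -0.30 beside -0.08 for all probes. Among those with the smallest adjusted p in DBA/2 mice were the transcription factors Bcl11b (-1.05), Lef1 (-1.06) and Ets1 (-0.73) and the costimulatory receptor Cd27 (-0.59). The higher ones were Lcp2 (0.53), an adaptor also used in myeloid cells and platelets, and Ptprc (0.28), the gene of the leukocyte antigen CD45.

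The change differed between the strains for 5 of the 31, with 3 lower and 2 higher in DBA/2 mice, which is near the share over all probes (6.73% and 6.48%) and is no result about the list. Bcl11b (-0.76, adjusted p = 0.000933 by limma), Lef1 (-0.71, adjusted p = 0.0271) and Ets1 (-0.45, adjusted p = 0.0401) fell further in DBA/2 mice. Zap70, the kinase that docks on the phosphorylated CD3 chains, differed the other way (0.90, adjusted p = 0.0109), as it changed by -1.03 in B6 mice and by -0.13 in DBA/2 mice. The phosphatase Ptpn22 did likewise (0.55, adjusted p = 0.00895).

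Probes for the receptor chains themselves, 14 in number with 12 tested, were lower for 7 and higher for 0 in DBA/2 mice over 4 w and 8 w, with a median change of -0.54, and lower for 6 and higher for 0 in B6 mice. Over all probes, 13.1% were lower in DBA/2 mice and 7.73% in B6 mice. Their gene segments are much alike, so that probes may share signal. A Tcra probe, A_52_P480620, changed by -1.16 in DBA/2 mice and by 0.12 in B6 mice, a strain difference of -1.28 (adjusted p = 0.000919 by limma). The other Tcra probes tested, with strain differences of -0.06 (adjusted p = 0.888) and -0.30 (adjusted p = 0.101), were not called, so the Tcra probes disagree. A Tcrg probe, A_51_P354616, differed the other way, by 1.73 (adjusted p = 0.0206).

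Across the 18 samples, Cd3d and Cd6 were the most alike pair among the members (Pearson r = 0.97), and within the 10 DBA/2 samples Cd5 and Cd6 reached 0.99. Cd3e correlated with Cd3d at 0.21 and with Cd3g at 0.21. Cd3g and Cd8b1 correlated at -0.66 over all samples but at 0.77 within DBA/2 and 0.81 within B6 samples, since the strains differ in opposite directions for these genes. The samples share strain, week and array in these values, which are descriptions. The 10 other genes most like the mean of the CD3 genes were Pxylp1, Ap2a1, Gid4, Dbp, a transcript known only as ENSMUST00000103659, Ets1, Tma7, Rcc2, Bex3 and Cnga1 (r from 0.85 to 0.88). Those most like the mean of Cd8a and Cd8b1 were Btla, an inhibitory receptor of lymphocytes, Ppip5k1, Fli1, Trim12a and Eef1akmt1 (r from 0.98 to 0.99), a likeness that includes the strain gap, since Fli1 had an r of -0.56 within B6 samples. Those most like Cd4 were Cd248, Gpat2, Ppp1r13l, Ccdc85b and a probe named NAP029525-1 (r from 0.94 to 0.95), with Cd4 itself near background in most samples. Cd4 read -2.15 in DBA/2 9 w replicate 2, the array with the most outlier spots, and -6.03 to -4.36 in all other samples. No r was computed for the DBA/2 mice without that sample. Within B6 samples r was 0.83 to 0.91, with the Cd4 probe well above background in 1 of them.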

How the data were processed

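Leukocyte RNA of 18 samples in 10 groups was hybridised to 19 one-colour whole mouse genome arrays. The authors deposited the scanner output, in which the processed signal is an intensity per spot with the background subtracted, and a table of the same intensities per probe, which is not normalized between arrays. The submitters' processing notes and the file headers name Agilent Feature Extraction 9.5.3.1, and the headers place the probes on mm8. No depth exists for arrays, and the number of arrays limits the precision.

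Controls and outlier spots were dropped, the spots of a probe were averaged, and the 75th percentile over 11536 probes measured well above background by every array was subtracted on the log2 scale. The log2 values thus come from the deposited intensities. The fit (limma 3.58.1, R 4.3.3) took 22939 probes, each measured well above background in 2 or more RNA samples, with 10 group means (8 residual degrees of freedom), moderated variances and Benjamini-Hochberg adjustment at 0.05. Figures were drawn in Python 3.11.15 with matplotlib 3.10.9. Groups and replicate numbers came from the sample titles. The scripts were tested on simulated data. Coreceptor balances were tested by exact permutation.

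The genes and lists were chosen with earlier results of these data known. Each member is named by its probe with the highest mean signal, with every other probe beside it. From the pathway list, the 5 genes with the smallest adjusted p in DBA/2 mice and the 5 in the strain difference are named, except 1 that is not reported here, and those most like CD3, Cd4 or CD8 by Pearson's r. Lcp2 and Ptprc, and the Tcra and Tcrg probes, were named after their values were seen. Alternatives were normexp, other scalings, the deposited table, filters, a floor of 10, blocks, single arrays, each strain alone, probe averages and leaving out each replicate. B6 2 w as reference, the CD3 reference without Cd3e and the balance without 1 DBA/2 sample were added after seeing the data.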

Additional observations from a re-analysis of the deposited data

Results flagged for a closer look

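The changes of 4 T cell genes over 4 w and 8 w differed between the strains by the test of the difference itself (limma, adjusted over all tested probes), with DBA/2 mice the lower in each. On the main probes, the difference of the log2 changes was -0.62 for Tcf7, -0.59 for Cd8b1, -0.48 for Cd6 and -0.32 for Cd5. The second Cd6 probe, A_52_P294977, did not fall further in DBA/2 mice over these weeks. Over the alternatives the adjusted p-values by limma ranged from 0.000734 to 0.42 for Tcf7, from 0.000502 to 0.202 for Cd8b1, from 0.000291 to 0.593 for Cd6 and from 0.000652 to 0.968 for Cd5, whose call was lost in 19 of 34. The monocyte markers differed between the strains in the same contrast, with 7 of 7 further up in DBA/2 mice (median 1.68), as did 5 of 9 hepatocyte markers, and their part in these differences was not tested. Of all tested probes, 6.48% were called higher in DBA/2 mice in that contrast and 6.73% lower.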

How the results depend on the processing

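The DBA/2 count of 7 lower members over 4 w and 8 w was 4 with normexp background correction and 5 to 7 when each replicate was left out. The B6 count of 5 was 0 with normexp, 3 with the 75th percentile over all probes, 3 (all higher) with the deposited table without scaling, 2 with no filter, 3 with each strain fitted alone and 3 to 5 when each replicate was left out, 3 being the count without either B6 0 w replicate. The count of 4 strain differences was 0 with normexp, 7 with the deposited table without scaling, 0 with no filter and 2 to 4 when each replicate was left out. With the replicate block the counts were 8, 6 and 5, and with slide as a block 8, 5 and 6. The replicate numbers were not taken to pair the samples in the main fit. The differences of replicate 2 minus replicate 1 over the tested probes correlated between groups at -0.01 to 0.46 (median 0.08). This covers 28 pairs of groups, of which 12 were over 0.1. In DBA/2 mice at 0, 2, 4 and 8 w the number goes with the slide, so a shared slide effect there is met only by the block settings.

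The coreceptor balance in B6 mice was -0.33 with normexp. In DBA/2 mice it was -0.43 with the Cd8a probe A_52_P150547 and -0.16 with the Cd8b1 probe A_52_P511269. Between the strains it was 0.98 with Cd8a alone, 0.69 with A_52_P443334, 0.80 with A_52_P150547 and -0.22 with A_52_P511269. Leaving out each replicate gave 0.27 to 0.82 in DBA/2 mice, 0.34 to 0.63 in B6 mice and 1.63 to 2.40 between the strains. Cd4 relative to CD3 was -0.18 in B6 mice with normexp, against 0.55, and 0.35 in DBA/2 mice with quantile normalization, against 0.09.

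Of the values of single genes under the alternatives, 1203 kept direction and side of the threshold, 113 lost the call, 18 gained it and 42 changed sign, and the cause was not tested. With the deposited table without scaling, which moved the median of all probes in B6 mice to 0.45 from -0.08, the B6 changes were 0.23 for Cd3d, 0.22 for Cd3e, 0.21 for Cd3g, 0.50 for Cd8a, 0.34 for Cd8b1, 0.0759 for Cd5, 0.0731 for Cd6, 0.013 for Lck and 0.34 for Tcf7. The strain differences of the changes were then -0.41 for Cd3e, -0.57 for Cd3g and -0.34 for Lck, and the levels at 0 w differed by 0.72 for Cd3e, 0.31 for Cd8a and 0.49 for Lck. With normexp, Cd4 gave -0.44 in B6 mice, 0.33 for the strain difference of the changes and -0.59 at 0 w. With quantile normalization, Cd4 in DBA/2 mice was 0.000458, Cd8a in B6 mice 0.0028 and the Cd3g strain difference -0.0175. Cd8a in B6 mice was 0.00237 with the array median and 0.0462 with the 75th percentile over all probes, under which Cd3e in DBA/2 mice was 0.00197. With pan-leukocyte scaling, Cd3g gave -0.14 for the strain difference and Cd3e 0.12 at 0 w. With only array 2 of B6 0 w replicate 2 the Cd3g strain difference was -0.0213. With the mean of a gene's probes, Cd8b1 in B6 mice was 0.11, the Cd3e strain difference -0.26, and the 0 w differences 0.62 for Cd3e and -0.13 for Tcf7. Leaving out each replicate gave Cd3e from -0.0875 to 0.47 for the strain difference, from -0.38 to 0.17 at 0 w and from -0.39 to 0.16 in DBA/2 mice, Cd8a from -0.0873 to 0.0237 in B6 mice, and Cd3g from -0.0521 to 0.12 for the strain difference. With B6 2 w as the reference, a choice made after seeing the data, Cd3e at 4 w was -0.22 and Cd4 -0.32. For single weeks, 1474 of 1678 values of called results held, 199 lost the call and 5 changed sign.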
